A study of Mus musculus with 6 samples.

Results

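The 49 genes described here encode the subunits of the proteasome, its activators, one inhibitor and its assembly chaperones. They were taken from the 35976 genes of the deposited count files as all symbols made of Psm, one letter from a to g, a number and at most one further letter. The set held 14 genes of the constitutive core (Psma1 to Psma7 and Psmb1 to Psmb7) and 20 genes of the regulatory cap (6 Psmc and 14 Psmd genes). It also held 5 immunoproteasome genes (Psmb8, Psmb9, Psmb10, Psme1 and Psme2), 7 other genes (Psme3, Psme4, Psmf1 and Psmg1 to Psmg4) and 3 genes set apart as tissue-specific forms or a gene copy (Psma8, Psmb11 and Psme2b). The low-count filter was passed by 47 of the 49.

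Amygdala tissue came from male C57BL/6J mice whose astrocytes carried Cas9 from an adeno-associated virus under the astrocyte promoter GfaABC1D. The guide was aimed at Egfr, the epidermal growth factor receptor (genotype label sgEgfrAstro, here sgEgfr), or at the Rosa control locus (label sgRosa26, here sgRosa). Both groups were left for more than 2 weeks, restrained in tubes for 7 days, fear conditioned for 1 day and put through extinction for 3 days; no unstressed group entered the comparison, and ages are not given in the labels. Neurons were isolated magnetically from dissociated tissue, and 5 ng of RNA per library gave 3 sgRosa and 3 sgEgfr libraries. The neurons isolated for sequencing were not the cells in which the promoter drives Cas9, but markers of astrocytes were present in the libraries. The labels do not say whether the libraries came from separate animals, and p-values therefore cover only the spread among the 6 libraries, which may be technical.

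The proteasome degrades proteins that carry ubiquitin chains. Its barrel-shaped core is built from rings of alpha (Psma) and beta (Psmb) subunits, and the beta subunits encoded by Psmb5, Psmb6 and Psmb7 carry the active sites. The regulatory cap unfolds substrates with a ring of ATPases (Psmc) and recognizes and deubiquitinates them with non-ATPase subunits (Psmd). Interferon induces replacements for the active subunits (Psmb8 for Psmb5, Psmb9 for Psmb6 and Psmb10 for Psmb7) and an alternative activator made of Psme1 and Psme2; together these shape peptides for class I antigen presentation. In neurons the proteasome also takes part in synaptic protein turnover.

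Total counts ranged from 2348897 to 10152812 per library, and a floor of 3 counts stood at 0.270 to 1.25 CPM (counts scaled to library size after TMM normalization), which covers counting error only. Egfr itself had 1, 26 and 23 counts in sgRosa and 6, 18 and 6 counts in sgEgfr (replicates 1, 2 and 3 in order, as in all such lists), too few to check the labels. Markers of other cells were abundant in the neuron libraries. Markers of astrocytes, the cells that carried Cas9, were present too. Their 7 markers had a mean log2 CPM of 5.73, 6.36 and 5.78 in sgRosa and 6.08, 6.61 and 4.42 in sgEgfr. The mean log2 CPM of 8 oligodendrocyte markers was 9.55 to 11.5 in sgRosa and 9.17 to 10.7 in sgEgfr, that of 6 endothelial markers was 6.66 to 8.69 in sgRosa and 7.41 to 7.60 in sgEgfr, and that of 10 pan-neuronal genes was 6.25 to 7.51 in sgRosa and 6.85 to 7.74 in sgEgfr. Choroid plexus genes were high in sgRosa replicate 3 and sgEgfr replicate 1 (7.45 and 7.23 log2 CPM, against at most 2.48 elsewhere), and mitochondrial transcripts took 29.8% of counts in sgRosa replicate 1. In such bulk libraries fewer cells of a type and less RNA per cell cannot be told apart, and the part of these differences in the results was not tested.

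Promoter sequences of the members give the letters that lie next to these genes. RefSeq (GRCm38.p6) held windows of 250 bases before to 50 bases after the start site for 41 of the 49 genes (44 windows; none for Psma8, Psmb1, Psmb2, Psmb7, Psmc3, Psmd3, Psmd7 and Psmg2). The 4 windows shown are those of Psmb5 and Psmb8, a constitutive active subunit and its immunoproteasome replacement, and of Psmb3 and Psmd10, whose sgEgfr libraries all lay below the sgRosa libraries. Capitals mark matches on either strand to the antioxidant response element core TGACNNNGC, to CCAAT, to the interferon-stimulated response element core (GAAA, any 2 bases, GAAA) and to the GAS element TTCNNNGAA.
Psmb5 (chr14:54617946-54618245, minus strand): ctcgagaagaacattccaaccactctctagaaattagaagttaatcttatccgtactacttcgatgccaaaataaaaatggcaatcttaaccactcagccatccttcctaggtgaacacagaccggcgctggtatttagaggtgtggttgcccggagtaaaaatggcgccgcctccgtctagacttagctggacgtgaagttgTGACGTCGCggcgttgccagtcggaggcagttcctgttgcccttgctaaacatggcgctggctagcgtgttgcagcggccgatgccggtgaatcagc
Psmb8 (chr17:34197945-34198244, plus strand): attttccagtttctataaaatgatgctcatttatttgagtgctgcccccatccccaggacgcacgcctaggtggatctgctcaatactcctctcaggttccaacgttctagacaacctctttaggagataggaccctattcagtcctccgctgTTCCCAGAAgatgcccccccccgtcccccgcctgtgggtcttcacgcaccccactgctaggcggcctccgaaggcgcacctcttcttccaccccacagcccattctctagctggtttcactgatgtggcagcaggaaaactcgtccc
Psmb3 (chr11:97703184-97703483, plus strand): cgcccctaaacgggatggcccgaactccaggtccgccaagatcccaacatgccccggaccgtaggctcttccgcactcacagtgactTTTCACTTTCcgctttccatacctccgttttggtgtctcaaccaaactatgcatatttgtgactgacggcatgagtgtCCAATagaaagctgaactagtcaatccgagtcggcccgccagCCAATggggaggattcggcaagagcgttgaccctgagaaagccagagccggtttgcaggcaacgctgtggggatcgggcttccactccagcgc
Psmd10 (chrX:140956662-140956961, minus strand): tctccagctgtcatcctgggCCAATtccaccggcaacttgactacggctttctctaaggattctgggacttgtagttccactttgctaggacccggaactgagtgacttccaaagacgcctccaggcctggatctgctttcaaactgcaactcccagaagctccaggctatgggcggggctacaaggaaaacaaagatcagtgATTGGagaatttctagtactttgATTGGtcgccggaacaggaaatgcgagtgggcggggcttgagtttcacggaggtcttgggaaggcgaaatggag

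The antioxidant response element core is the type of site bound by NFE2L1, the factor known to raise proteasome genes when proteasome activity is short. It was matched in 6 of 44 member windows (13.6%; Psmb5, Psmb6, Psmc6, Psmd9, Psmd12 and Psme4), against 12.4% of all 32851 windows. The match in the Psmb5 window began 47 bases before the start site. CCAAT was matched in 14 member windows (31.8%, against 37.4% of all). Psmd10 had 3 matches, as did Psma3, Psmd4 and Psmd14, and Psmb3 had 2, as did Psma1 and Psma6. The interferon element core was matched in 5 (11.4%, against 3.44%; Psmb3, Psmd4, Psmd9, Psme1 and Psmg4). The GAS element was matched in 3 (6.82%, against 8.30%; Psmb8, Psmd2 and Psmg1). These matches are a description of the letters in the windows and say nothing about binding.

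The comparison asked how these genes differed in neurons when astrocytes carried guides against Egfr. Of the 47 tested proteasome genes, 43 had a negative and 4 a positive log2 fold change in sgEgfr over sgRosa, and the median was -0.24; over all 13159 tested genes 53.8% were negative and the median was -0.039. No proteasome gene passed the quasi-likelihood test of edgeR at a Benjamini-Hochberg adjusted p of 0.05 over all genes (smallest adjusted p = 0.820), where 0% of all tested genes were called. At an unadjusted p under 0.05 there were 4, all lower (Psmd10, Psmb2, Psmb3 and Psmc2), where 2.72% of all genes were lower and 3.05% higher at that level. DESeq2 called 33 genes (0.251% of those tested) and limma-voom 0, with no proteasome gene in either. DESeq2 gave no adjusted p for 5114 of the tested genes, among them 7 members, and these count as not called. The unadjusted p was under 0.05 for 3 members by DESeq2, where 5.98% of all tested genes were. By limma-voom it was so for 2 members, where 15% of all tested genes were. All 3 sgEgfr libraries lay below all 3 sgRosa libraries for 17 of the 47, where 7.6% of all tested genes did so, and above them for 1, Psma3, where 5.8% did so.

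Summed over the 49 genes, expression was 3776, 3519 and 4194 CPM in sgRosa and 3374, 3299 and 3461 CPM in sgEgfr, so every sgEgfr library lay below every sgRosa library. As shares of all counts without TMM scaling the same genes took 0.324, 0.359 and 0.459% in sgRosa and 0.326, 0.340 and 0.352% in sgEgfr, and there the groups overlapped. The exact 95% binomial interval of the smallest share, that of sgRosa replicate 1, was 0.319% to 0.329%. That library had the largest mitochondrial share and a TMM factor of 0.861, against 0.971 to 1.10 in the others.

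**Figure D1:**
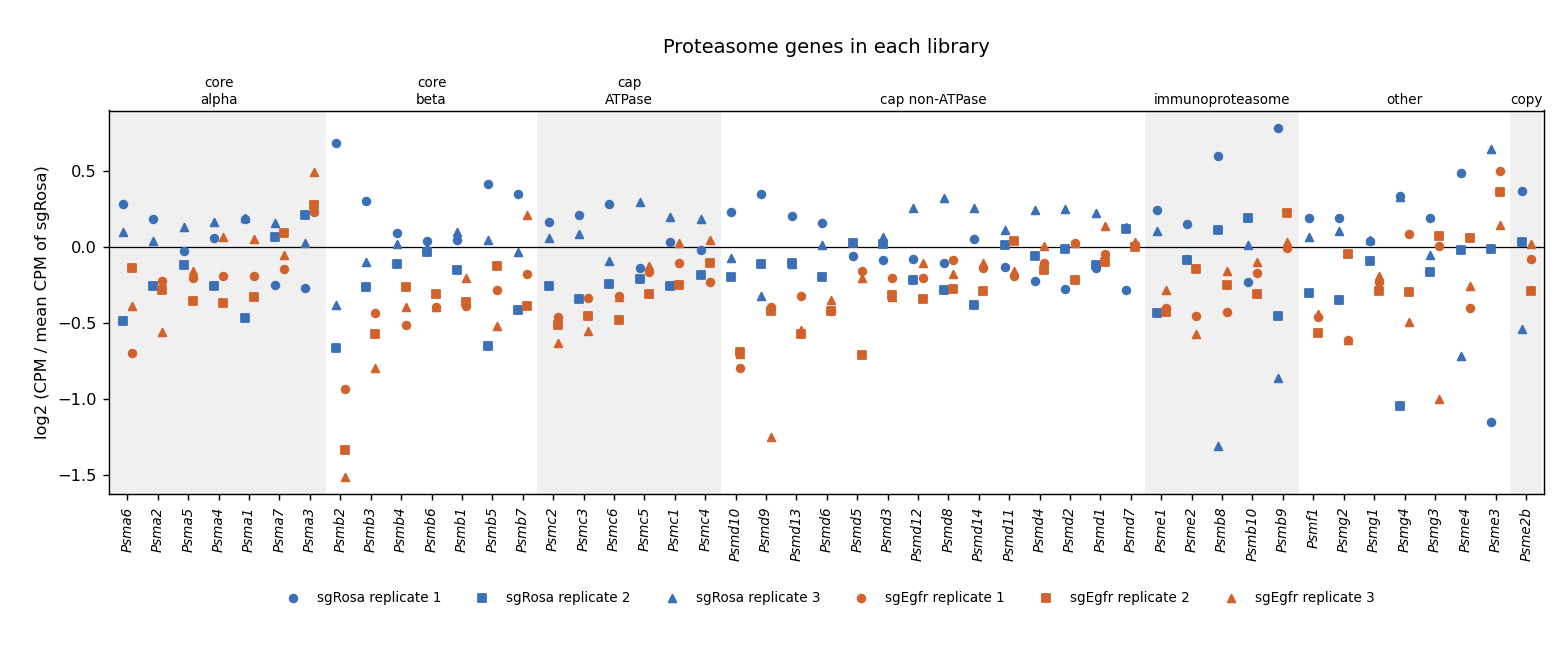
CPM of each of the 47 tested proteasome genes in each library on a log2 scale, relative to the mean of the 3 sgRosa libraries (blue; sgEgfr in orange; symbols give the replicate), grouped by role and ordered by fold change. Most orange points of the core beta genes and of Psmc2, Psmd10 and Psmf1 lie below the blue ones, while those of Psma3 lie above.

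**Figure D2:**
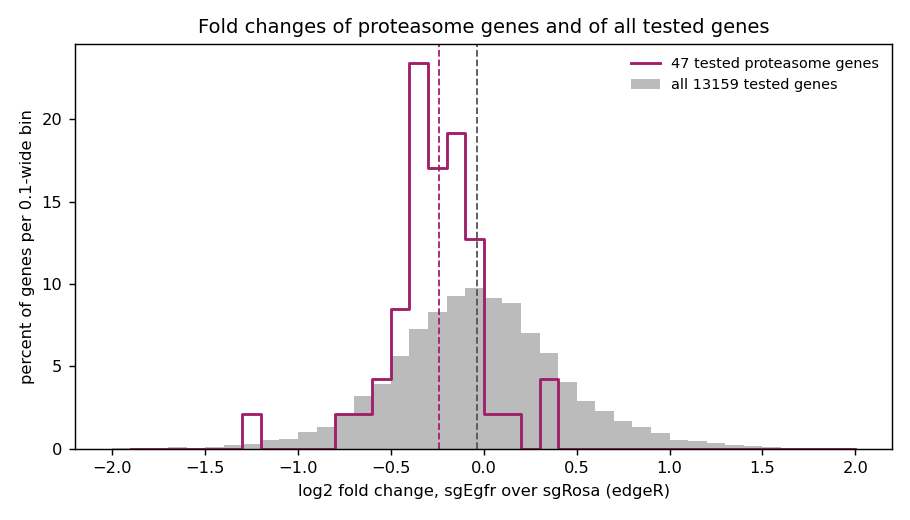
Percent of genes in each 0.1-wide bin of the log2 fold change of sgEgfr over sgRosa, for all tested genes (grey bars) and the 47 tested proteasome genes (line); dashed lines mark the medians of -0.039 and -0.24. Bins beyond 2 on either side are not drawn, and the proteasome genes sit in a narrow range mostly left of 0.

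The proteasome genes have short transcripts, with a median of 1382 bases against 2795.5 bases over the tested genes. With each library's trend of expression on transcript length removed, an alternative chosen after seeing the data, the median of the members was -0.065 and that of all genes -0.045. Then 33 of 47 members were negative, where 55.2% of all genes were. The sgEgfr libraries lay below the sgRosa libraries for 12 members, where 6.17% of all genes did so. The trend was fitted in each library with any group difference still in it, so a difference shared by short genes would be removed too. The part of transcript length in the family's fold changes was not tested. The median of the family lay close to that of all genes once this trend was removed. Among the genes with the lowest unadjusted p, Psmd10 was then at -0.58, Psmb2 at -0.95, Psmb3 at -0.31 and Psmc2 at -0.43 on the log2 scale. Other genes described in each library moved by over 1.5 times, to -0.14 for Psma6, -0.20 for Psmb4, -0.24 for Psmd6, -0.00021 for Psmg1 and -0.20 for Psmg2, besides active-site and immunoproteasome genes given with their values.

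Among the alpha subunits of the core, which form its outer rings and gate the entry of substrates, 6 of 7 genes were negative (median -0.16, range -0.40 to 0.34). Psma3 (chromosome 12, 70974621 to 70996347, plus strand), the exception, stood at 111, 155 and 136 CPM in sgRosa and at 157, 162 and 189 CPM in sgEgfr. All sgEgfr values of Psma3 were above all sgRosa values, with means of 134 ± 22.0 for the sgRosa group and 169.5 ± 17.02 for the sgEgfr group (CPM ± SD, n = 3), but the gene did not pass (log2 fold change 0.34, SE 0.239, unadjusted p = 0.195, edgeR adjusted p = 0.839). Psma2 stood at 71.1, 52.2 and 64.2 CPM in sgRosa and at 53.5, 51.3 and 42.5 CPM in sgEgfr (log2 fold change -0.35, SE 0.224). Psma6 stood at 67.8, 39.7 and 59.7 CPM in sgRosa and at 34.3, 50.7 and 42.5 CPM in sgEgfr (log2 fold change -0.40, SE 0.275). Both sets of groups overlapped, through sgRosa replicate 2 in each case. Of the remaining alpha genes, Psma5 had separated groups (log2 fold change -0.24, SE 0.202), and Psma1, Psma4 and Psma7 overlapped, with log2 fold changes of -0.16, -0.16 and -0.033.

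All 7 constitutive beta genes, which form the inner rings, were negative (median -0.37). Groups were separated with sgEgfr below for 5 of these beta genes, where 7.6% of all tested genes were so. Their summed expression was 695, 539.6 and 601 CPM in sgRosa and 448, 455 and 456 CPM in sgEgfr, a mean of 612 ± 78.0 against 453 ± 3.85 CPM (SD, n = 3 each). For the summed alpha genes the means were 649 ± 47.6 against 636 ± 32.2 CPM, and their groups overlapped. The difference between the alpha and the beta genes was not tested. Median transcript length was 859 bases for the beta and 1165 bases for the alpha genes. With the length trend removed, the median log2 fold change of all 14 core genes was -0.084.

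Psmb2 (chromosome 4, 126677630 to 126709714, plus strand), a structural beta subunit, had the most negative fold change of the family. It stood at 116, 45.5 and 55.3 CPM in sgRosa and at 37.7, 28.6 and 25.3 CPM in sgEgfr. The sgRosa spread came mainly from replicate 1, and the sgEgfr libraries were all below the lowest sgRosa library (log2 fold change -1.23, SE 0.385, unadjusted p = 0.0131, edgeR adjusted p = 0.820). Without sgRosa replicate 1 its log2 fold change was -0.70, and its adjusted p ranged from 0.143 to 1.000 over the alternatives. Psmb3 (chromosome 11, 97703399 to 97713500, plus strand), another structural subunit, stood at 56.8, 38.4 and 42.9 CPM in sgRosa and at 34.1, 31.0 and 26.5 CPM in sgEgfr (log2 fold change -0.59, SE 0.239, unadjusted p = 0.0394, edgeR adjusted p = 0.820). Psmb4, known for its part in assembly of the beta ring, stood at 69.2, 60.1 and 65.9 CPM in sgRosa and at 45.6, 54.2 and 49.5 CPM in sgEgfr (log2 fold change -0.39, SE 0.203). The groups of both genes were separated, with sgEgfr below. Psmb1 was separated in the same direction (log2 fold change -0.32, SE 0.217).

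Of the 3 constitutive active-site genes, Psmb6 stood at 239, 227 and 231 CPM in sgRosa and at 177, 188 and 177 CPM in sgEgfr and averaged 233 ± 6.18 for the sgRosa group and 180.3 ± 6.35 for the sgEgfr group (CPM ± SD, n = 3). Its groups were separated, yet it did not pass (log2 fold change -0.37, SE 0.218, unadjusted p = 0.132, edgeR adjusted p = 0.829), and with the length trend removed its log2 fold change was -0.11. Psmb5 stood at 14.9, 7.10 and 11.5 CPM in sgRosa and at 9.17, 10.3 and 7.79 CPM in sgEgfr (log2 fold change -0.31, SE 0.338), and Psmb7 at 42.5, 25.1 and 32.6 CPM in sgRosa and at 29.4, 25.4 and 38.6 CPM in sgEgfr (log2 fold change -0.11, SE 0.278). The groups of both overlapped. Without sgRosa replicate 1 the log2 fold change was -0.041 for Psmb5 and 0.12 for Psmb7, and with the length trend removed it was -0.016 and 0.098. Pseudogene copies of Psmb5, Psmb6 and Psmb7 are annotated in GENCODE, and how reads shared with them were counted is not given in the sources used here.

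All 6 ATPase genes of the cap were negative (median -0.29, range -0.53 to -0.097). Psmc2 (chromosome 5, 21785283 to 21803787, plus strand) stood at 114, 85.2 and 106 CPM in sgRosa and at 74.0, 71.4 and 65.9 CPM in sgEgfr (log2 fold change -0.53, SE 0.219, unadjusted p = 0.0422, edgeR adjusted p = 0.820). Psmc3 stood at 176, 119.9 and 161 CPM in sgRosa and at 120.5, 111 and 104 CPM in sgEgfr (log2 fold change -0.45, SE 0.241). Psmc6 stood at 74.5, 51.8 and 57.5 CPM in sgRosa and at 49.1, 44.0 and 48.7 CPM in sgEgfr (log2 fold change -0.38, SE 0.225). The groups of Psmc2 and Psmc6 were separated with sgEgfr below, while for Psmc3 the lowest sgRosa library, replicate 2, lay just under sgEgfr replicate 1. Psmc1, Psmc4 and Psmc5 overlapped, with log2 fold changes from -0.20 to -0.097.

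Of the 14 non-ATPase genes 13 were negative (median -0.20). Groups were separated with sgEgfr below for 6 of them, where 7.6% of all tested genes were so. Psmd10 (chromosome X, 140948429 to 140956728, minus strand), which encodes gankyrin, an ankyrin-repeat chaperone of cap assembly and not a subunit of the finished particle, had the smallest p of the family. It stood at 34.3, 25.5 and 27.8 CPM in sgRosa and at 16.8, 18.1 and 17.9 CPM in sgEgfr, and averaged 29.2 ± 4.58 for the sgRosa group and 17.6 ± 0.669 for the sgEgfr group (CPM ± SD, n = 3). Every sgEgfr library was below 25.5 CPM, the lowest sgRosa value (log2 fold change -0.73, SE 0.224, unadjusted p = 0.0119, edgeR adjusted p = 0.820; 0.167 to 1.000 over the alternatives). Psmd13, a lid subunit, stood at 41.9, 33.8 and 33.7 CPM in sgRosa and at 29.2, 24.5 and 24.9 CPM in sgEgfr (log2 fold change -0.47, SE 0.216), and Psmd6, also of the lid, at 59.3, 46.4 and 53.6 CPM in sgRosa and at 39.7, 39.7 and 41.7 CPM in sgEgfr (log2 fold change -0.40, SE 0.205). The other separated genes were Psmd9 (log2 fold change -0.62, SE 0.327) and Psmd5 (log2 fold change -0.34, SE 0.231), both assembly chaperones of the cap, and the lid gene Psmd3 (log2 fold change -0.28, SE 0.196). The 3 cap chaperones Psmd5, Psmd9 and Psmd10 were thus all among the separated genes, a grouping made after their values were seen.

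The remaining 8 non-ATPase genes overlapped between groups. They included the large scaffold genes Psmd1 and Psmd2 at -0.0024 and -0.051, the ubiquitin receptor gene Psmd4 at -0.083, the deubiquitinase gene Psmd14 at -0.18 and its partner Psmd7 at 0.015 on the log2 scale. Psmd8, Psmd11 and Psmd12 lay between -0.22 and -0.10. Over the 20 cap genes the median was -0.21. Leaving out sgRosa replicate 3 gave a cap median of -0.057, and leaving out sgEgfr replicate 2 gave -0.14, so its size rested on these libraries. The median of the 14 core genes was -0.31, and -0.36 to -0.22 without single libraries.

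Of the 5 immunoproteasome genes 4 were negative and Psmb9 was positive (median -0.25), none passed, and only Psme2 had separated groups. Psme2 (chromosome 14, 55587441 to 55591113, minus strand) stood at 58.5, 49.7 and 49.9 CPM in sgRosa and at 38.4, 47.8 and 35.5 CPM in sgEgfr (log2 fold change -0.38, SE 0.219, unadjusted p = 0.125, edgeR adjusted p = 0.824). Its activator partner Psme1 stood at 21.4, 13.4 and 19.4 CPM in sgRosa and at 13.6, 13.4 and 14.8 CPM in sgEgfr (log2 fold change -0.38, SE 0.266). Psme2b, a copy of Psme2 on chromosome 11, stood at 8.44, 6.68 and 4.50 CPM in sgRosa and at 6.18, 5.36 and 6.62 CPM in sgEgfr (log2 fold change -0.092, SE 0.366), and reads shared with Psme2 may be split between them. Psmb10 (chromosome 8, 105935735 to 105938444, minus strand) stood at 28.4, 38.0 and 33.8 CPM in sgRosa and at 29.6, 27.0 and 31.2 CPM in sgEgfr (log2 fold change -0.19, SE 0.216), with overlapping groups; its log2 fold change was -0.058 with sgRosa replicate 2 left out and -0.11 with sgEgfr replicate 2 left out. With the length trend removed the values were -0.13 for Psme2, -0.087 for Psme1 and -0.030 for Psmb10.

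Psmb8 (chromosome 17, 34197721 to 34201454, plus strand) stood at 27.0, 19.2 and 7.20 CPM in sgRosa and at 13.2, 14.95 and 15.98 CPM in sgEgfr (log2 fold change -0.25, SE 0.459, unadjusted p = 0.599, edgeR adjusted p = 0.937). The sgEgfr libraries were close together, and the sgRosa libraries reached from below the lowest to above the highest of them. Without sgRosa replicate 1 its log2 fold change was 0.24, and without sgRosa replicate 3 it was -0.67. Psmb9 (chromosome 17, 34181987 to 34187764, minus strand) was low, at 5.91, 2.51 and 1.89 CPM in sgRosa and at 3.41, 4.02 and 3.51 CPM in sgEgfr (log2 fold change 0.12, SE 0.530, unadjusted p = 0.821, edgeR adjusted p = 0.972). Its log2 fold change was 0.80 without sgRosa replicate 1 and -0.25 without sgRosa replicate 3. Counts of Psmb9 were 21, 6 and 21 in sgRosa and 16, 18 and 9 in sgEgfr. Psmb9 and Tap1 share exonic sequence on opposite strands, and unless strand was used in counting, which the sources used here do not state, their reads cannot be told apart.

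Other genes of antigen presentation also varied within sgRosa. The mean log2 CPM of 10 interferon-response and class I genes was 5.68, 5.99 and 4.33 in sgRosa and 5.26, 5.51 and 5.23 in sgEgfr, lowest in sgRosa replicate 3, which was also lowest for Psmb8 and Psmb9. Microglia, the resident immune cells of the brain, are a known source of immunoproteasome expression. The mean of 9 tested microglia markers of 10 listed was 2.31, 3.44 and 3.98 in sgRosa and 4.93, 5.52 and 1.81 in sgEgfr, with none at 0 in every library, and the summed level of all 10 was 72.8 to 183 CPM in sgRosa and 38.2 to 531 CPM in sgEgfr. The immunoproteasome means were 4.52, 4.11 and 3.84 in sgRosa and 3.94, 4.05 and 4.02 in sgEgfr. Their relation to the microglia markers was not tested. Of 6 leukocyte markers 2 were tested, Ptprc and Lck. Their mean was 1.76, 1.78 and 1.92 log2 CPM in sgRosa and 2.54, 3.56 and 2.61 in sgEgfr, so all sgEgfr libraries were above all sgRosa libraries. Of the 2 genes only Ptprc was so by itself, as were 5.8% of all tested genes, and the groups of Lck overlapped. The summed level of all 6 was 8.10 to 11.7 CPM in sgRosa and 16.4 to 33.2 CPM in sgEgfr. Ptprc, the pan-leukocyte antigen CD45, which microglia also express, was at 1.59 (SE 0.394, unadjusted p = 0.00399, edgeR adjusted p = 0.820). The T cell markers Cd3d and Cd3e had 0 to 3 counts per library. Lck, also a T cell gene, stood at 1.69, 1.25 and 2.34 CPM in sgRosa and at 1.92, 5.13 and 3.12 CPM in sgEgfr (log2 fold change 0.86, SE 0.538, unadjusted p = 0.149, edgeR adjusted p = 0.829). The mean of 5 red blood cell genes was 7.00, 5.85 and 5.78 in sgRosa and 7.59, 9.14 and 6.31 in sgEgfr. Endothelial markers were highest in sgRosa replicate 1 (8.69 log2 CPM). The part of these cell types in the result was not tested.

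**Figure D3:**
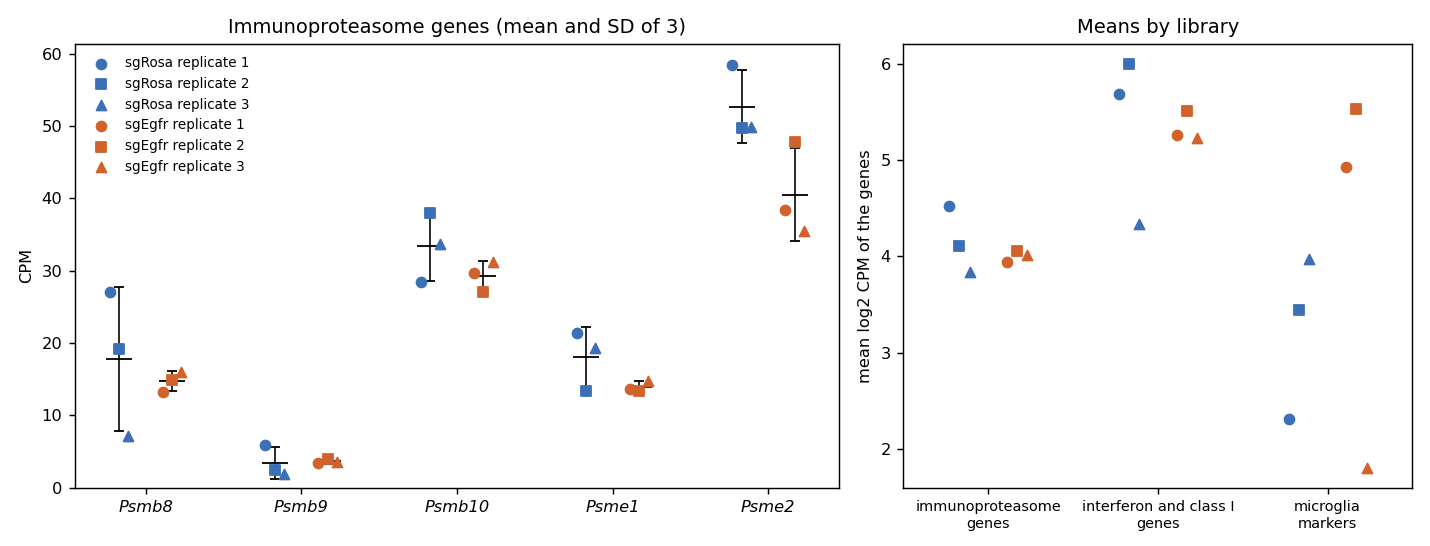
Left, CPM of the 5 immunoproteasome genes in each library with the mean and SD of each group (n = 3); right, mean log2 CPM by library of the immunoproteasome genes, of the 10 interferon-response and class I genes and of the 9 tested microglia markers. The groups overlap for all but Psme2, and Psmb8 spans 7.20 to 27.0 CPM within sgRosa.

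Each immunoproteasome subunit was then set against the constitutive subunit it replaces, as the log2 ratio of their CPM (prior count of 2). The ratio of Psmb8 to Psmb5 was 0.84, 1.38 and -0.65 in sgRosa and 0.51, 0.52 and 1.00 in sgEgfr, a difference of 0.15 (exact two-sided permutation p = 0.9, adjusted over the 3 ratios 0.9). The ratio of Psmb9 to Psmb6 was -5.24, -6.28 and -6.65 in sgRosa and -5.53, -5.41 and -5.49 in sgEgfr, a difference of 0.58 (exact two-sided permutation p = 0.4, adjusted 0.9), which was 0.99 without sgRosa replicate 1 and 0.29 without sgRosa replicate 3. The ratio of Psmb10 to Psmb7 was -0.57, 0.59 and 0.050 in sgRosa and 0.010, 0.085 and -0.30 in sgEgfr, a difference of -0.093 (exact two-sided permutation p = 0.9, adjusted 0.9). With 3 libraries against 3 the smallest p this test allows is 0.1. In all 3 ratios the sgRosa libraries spread on both sides of the sgEgfr libraries, with SDs of 1.05, 0.728 and 0.584 in sgRosa and 0.278, 0.0645 and 0.206 in sgEgfr.

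The finished core holds its subunits in equal numbers, but this concerns proteins, which were not measured here. Per length of transcript, the RNA levels of the subunits were far apart. These levels are CPM per kb, averaged over the 6 libraries with their SD. Among alpha genes they ran from 19.2 ± 3.51 CPM per kb for Psma2 to 246 ± 26.2 CPM per kb for Psma7, and among constitutive beta genes from 13.3 ± 3.73 CPM per kb for Psmb5 to 259 ± 36.5 CPM per kb for Psmb6, a ratio of 19.4. The ATPase genes lay closer together, from 24.3 ± 4.87 CPM per kb for Psmc6 to 175 ± 27.9 CPM per kb for Psmc5. The non-ATPase genes ran from 5.86 ± 1.98 CPM per kb for Psmd9 to 139 ± 16.4 CPM per kb for Psmd4. Among the active-site pairs, Psmb8 (9.99 ± 4.05 CPM per kb) was 29.2% to 126% of Psmb5 across the libraries and Psmb10 (23.9 ± 3.06 CPM per kb) was 59.2% to 134% of Psmb7 (27.8 ± 6.10 CPM per kb), whereas Psmb9 (2.62 ± 1.03 CPM per kb) was 0.483% to 1.46% of Psmb6. These levels depend on the transcript length assigned to each gene and on shared reads.

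**Figure D4:**
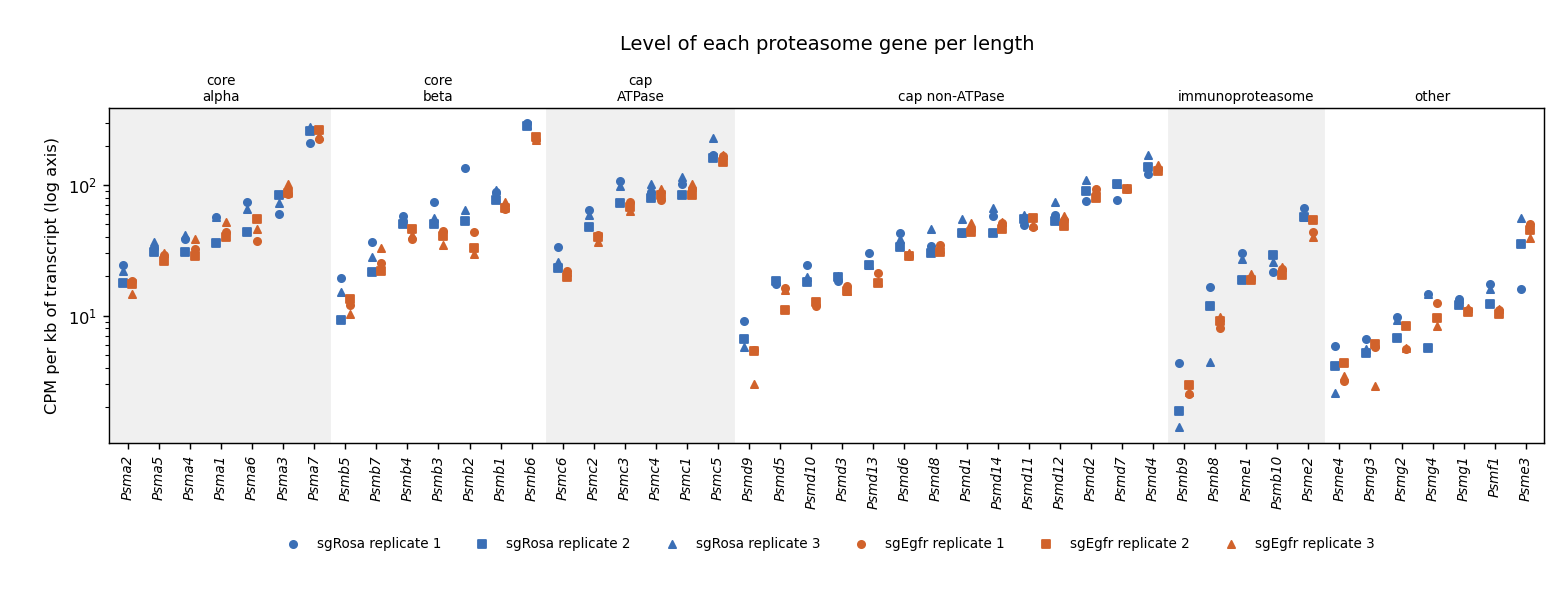
CPM per kb of transcript (log axis) of the proteasome genes in each library, ordered by mean within each role; blue is sgRosa, orange is sgEgfr and the symbol gives the replicate. Psmb6 and Psma7 are the highest at 259 and 246 CPM per kb, and Psmb9 the lowest of the tested genes at 2.62.

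Of the 7 other genes 6 were negative (median -0.24; -0.075 without sgRosa replicate 1 and -0.14 without sgEgfr replicate 3). Psmf1 (chromosome 2, 151715812 to 151744186, minus strand), which encodes a proteasome inhibitor, stood at 45.3, 32.2 and 41.5 CPM in sgRosa and at 28.8, 26.8 and 29.2 CPM in sgEgfr (log2 fold change -0.49, SE 0.220, unadjusted p = 0.0568, edgeR adjusted p = 0.820), and its groups were separated with sgEgfr below. Psmg1 and Psmg2 encode partners in a chaperone of core assembly. Psmg1 stood at 12.4, 11.3 and 12.4 CPM in sgRosa and at 10.2, 9.82 and 10.5 CPM in sgEgfr (log2 fold change -0.24, SE 0.248), and its groups were separated in the same direction. Psmg2 stood at 11.5, 7.94 and 10.9 CPM in sgRosa and at 6.61, 9.82 and 6.62 CPM in sgEgfr (log2 fold change -0.40, SE 0.318), with overlapping groups. Psmg3 and Psmg4, another chaperone pair, were at -0.20 and -0.24. Psma8, the alpha subunit of the testis proteasome, had 8, 4 and 9 counts in sgRosa and 10, 6 and 3 in sgEgfr. Psmb11, the beta subunit of the thymus, had 2, 0 and 0 counts in sgRosa and 0 in each sgEgfr library. Both were left out of the test by the low-count filter.

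Other genes of the ubiquitin-proteasome pathway were read in the same fit, and 0 of 34 passed the edgeR test. Rps27a, a fusion of ubiquitin with a ribosomal protein, stood at 91.7, 54.7 and 43.5 CPM in sgRosa and at 35.0, 41.7 and 26.9 CPM in sgEgfr (log2 fold change -0.87, SE 0.331, unadjusted p = 0.0319, edgeR adjusted p = 0.820). Its groups were separated with sgEgfr below, and without sgRosa replicate 1 the log2 fold change was -0.48. Retrocopies of this gene are known, and reads shared with them are uncertain.

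Proteasome-associated and shuttle factors were negative in 7 and positive in 9 of 16 (median 0.067). The ubiquitin receptor gene Adrm1 (log2 fold change -0.40, SE 0.217) had separated groups with sgEgfr below. The same held for the associated thioredoxin-like gene Txnl1 (log2 fold change -0.24, SE 0.197) and for 7.6% of all tested genes. The groups of the small cap subunit gene Shfm1 (log2 fold change -0.34, SE 0.270) overlapped. Of 4 regulators of proteasome gene transcription 2 were negative and 2 positive (median -0.048). Nfe2l1 stood at 90.3, 185 and 166 CPM in sgRosa and at 197, 151 and 164 CPM in sgEgfr (log2 fold change 0.22, SE 0.315), with overlapping groups. Ngly1, whose product deglycosylates NFE2L1, stood at 50.9, 42.2 and 36.5 CPM in sgRosa and at 31.99, 32.8 and 28.8 CPM in sgEgfr (log2 fold change -0.46, SE 0.220, unadjusted p = 0.0685, edgeR adjusted p = 0.820), with sgEgfr below sgRosa in every library. The segregase gene Vcp was at -0.17 (SE 0.246). Of 10 interferon-response and class I genes 8 were negative (median -0.23), and none had separated groups; H2-K1 was at 0.59 (SE 0.423) and Erap1 at -0.38 (SE 0.449). Without single libraries these ran from 0.30 to 1.05 and from -0.74 to -0.10, and H2-K1 may share reads with similar class I genes.

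The direction of the family was read again without the libraries that stood apart. Without sgRosa replicate 3 and sgEgfr replicate 1, the libraries with choroid plexus RNA, 37 of 47 members were negative (median -0.23, all genes -0.010). Without sgRosa replicate 1, the library with the largest mitochondrial share, 40 were negative (median -0.21, all genes -0.039). Log2 fold changes that moved by over 1.5 times without it included those of Psma2 (-0.22), Psma6 (-0.21), Psmb3 (-0.39), Psmc6 (-0.19) and Psme1 (-0.23), besides Psmb2, Psmb5, Psmb7, Psmb8 and Psmb9. By library-size scaling the count was 42 and the sgEgfr libraries lay below the sgRosa libraries for 15 members, where 7.32% of all genes did so. With that scaling they lay above for 0 members, where 5.21% of all genes did so, and the groups of Psma3 overlapped.

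**Figure D5:**
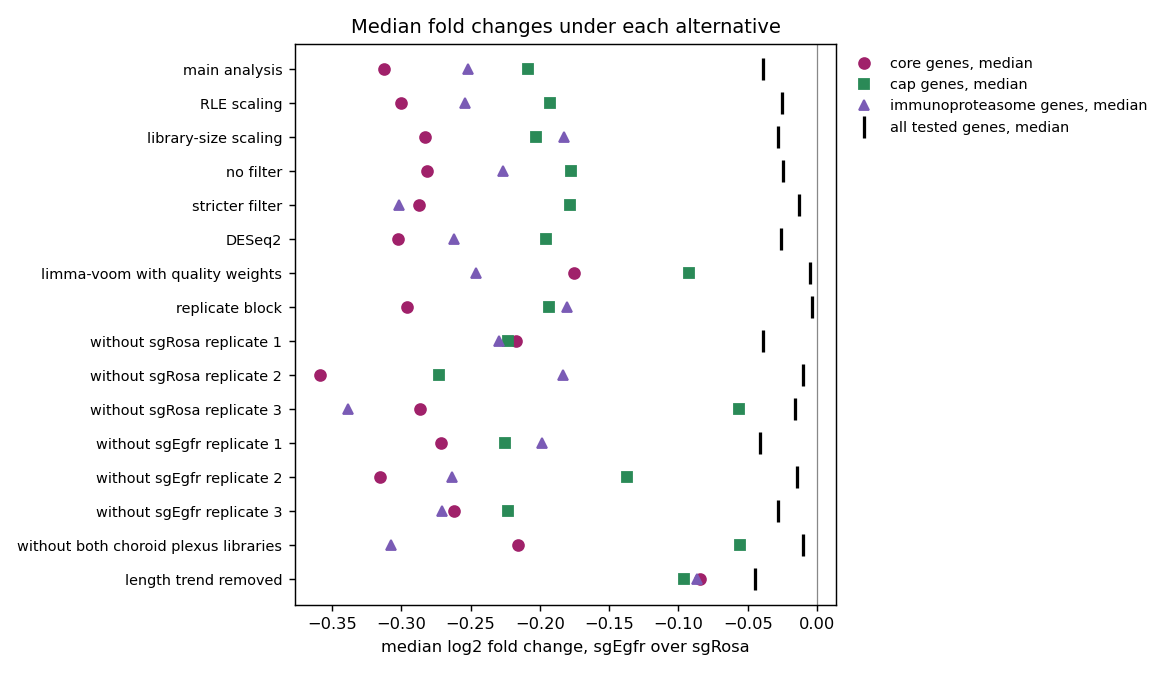
Median log2 fold change of sgEgfr over sgRosa of the core, cap and immunoproteasome genes and of all tested genes (black bars) in the main analysis and under each alternative. All 3 medians stay below 0 in each row, and with the length trend removed they come to -0.084, -0.096 and -0.087, against -0.045 for all genes.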

How the data were processed

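The authors deposited raw counts of reads per gene for 6 libraries, one table each and one table of the series, whose matching columns were identical; 3 columns in it that belong to none of these samples were not used. The submitters' processing notes name STAR 2.7.5c and featureCounts 2.0.1 on mm10, with fastp 0.23.2, MultiQC 1.11, FastQC 0.11.9 and edgeR 3.42.4; options, annotation and strand setting are not given in the sources used here. Libraries were grouped by title. Of 35976 genes, 13159 passed filterByExpr (minimum count 10, total 15). The groups were compared after TMM scaling with the robust quasi-likelihood test of edgeR 4.0.16 in R 4.3.3, with p adjusted over all tested genes and a threshold of 0.05. SEs were derived from the fold change and F. The test was also run on simulated counts, drawn without length trends or cell-type differences between libraries. That run checked the estimated fold changes, and how often changed genes were called is not reported here. DESeq2 1.42.0 and limma-voom (limma 3.58.1) were run beside the edgeR test, the latter always with a quality weight for each library. No pair of replicates agreed within sampling noise (lowest chi-square per degree of freedom 9.53).

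Positions are from GENCODE vM21 (GRCm38, the assembly of mm10), where all 49 genes were found; transcript length is the median over a gene's basic coding transcripts, found for 95.6% of tested genes and all 47 members. Exons of 11 members overlap a gene on the opposite strand (Psma4, Psma5, Psmb7, Psmb8, Psmb9, Psmc3, Psmd1, Psmd3, Psmd9, Psmd13 and Psme1) and exons of 4 overlap another on the same strand (Psmb5, Psmd1, Psme2b and Psmg3). Members and lists were chosen with earlier results of these data known. Values in each library were to be given for the immunoproteasome genes, Psmb5 to Psmb7 and up to 3 genes of each role by smallest unadjusted p, and up to 3 genes of each pathway list were to be named; genes named beyond this were chosen after their values were seen. Some pathway genes that the rule names are not reported here. Alternatives were scaling by RLE or by library size, omission of the filter, a stricter one (at least 1 CPM in 3 libraries with 20 counts on average), other tools, a replicate block and leaving out each library; removal of the length trend (lowess span 0.3) and leaving out both choroid plexus libraries were added after seeing the data.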

Additional observations from a re-analysis of the deposited data

How the results depend on the processing

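In the main analysis and every alternative 0 proteasome genes passed. Over all genes, 0 were called in the main analysis, 33 by DESeq2 and 1 (Slitrk2) with no filter. Members with a negative fold change numbered 33 to 43 over all settings. The core median was -0.084 with the length trend removed. The cap median was -0.093 by limma-voom, -0.096 with the length trend removed, -0.056 without both choroid plexus libraries and -0.27 to -0.057 without single libraries. The median of the other genes was -0.00021 with the length trend removed and -0.31 to -0.075 without single libraries. Group differences of the log2 ratios without single libraries were -0.44 to 0.58 for Psmb8 to Psmb5 and -0.39 to 0.19 for Psmb10 to Psmb7, so both changed sign. Cap genes numbered 1 positive and 19 negative in the main analysis, 7 and 13 without both choroid plexus libraries, 5 and 15 by limma-voom and without sgRosa replicate 3, and 4 and 16 with the length trend removed; core genes numbered 1 and 13 in the main analysis and 5 and 9 with the length trend removed. Among genes that the naming rule picked, fold changes that changed sign were those of Egfr (-1.19 to 0.98 without single libraries), Nfe2l1 (-0.019 to 0.45), Psmb8 (-0.67 to 0.24), Psmb9 (-0.25 to 0.80; -0.18 without both choroid plexus libraries), Psmb7 (-0.27 to 0.12; 0.036 by limma-voom, 0.098 with the length trend removed) and Vcp (0.014 without both choroid plexus libraries). The cause was not tested.

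Replicate numbers are shared between groups, but deviations of same-numbered libraries correlated at -0.031, 0.48 and 0.28 (replicates 1, 2 and 3), so the numbers were not taken to pair them, and not every library correlated best with its own number. With the replicate block 0 genes were called, 42 members were negative, and the medians were -0.30 for the core, -0.19 for the cap and -0.18 for the immunoproteasome genes. At 2348897 counts, the smallest library, 3 counts are 1.25 CPM, which limits Psmb9, Psmg3 and Psmg4 most among tested members.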

Other observations

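The activator genes Psme3 and Psme4 varied in opposite ways between the sgRosa libraries, a pair chosen after their values were seen. Psme3, the nuclear activator gene, stood at 42.7, 94.0 and 148 CPM in sgRosa and at 134, 122 and 105 CPM in sgEgfr (log2 fold change 0.34, SE 0.419, unadjusted p = 0.447, edgeR adjusted p = 0.902). Psme4, which encodes a large activator that caps the core without ATPases, stood at 38.0, 26.7 and 16.5 CPM in sgRosa and at 20.5, 28.1 and 22.6 CPM in sgEgfr (log2 fold change -0.18, SE 0.335, unadjusted p = 0.614, edgeR adjusted p = 0.940). Within sgRosa the library with the lowest Psme3 had the highest Psme4, and the reverse held for replicate 3. Pan-neuronal genes averaged 6.25, 6.35 and 7.51 log2 CPM in sgRosa and 7.39, 6.85 and 7.74 in sgEgfr. The relation of Psme3 and Psme4 to these means was not tested. Neither Psme3 nor Psme4 had separated groups.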
